A study of Cucumis sativus with 12 samples.

Results

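GIGANTEA-like (CsaV3_6G005020), adagio protein 3 (CsaV3_5G014370) and a putative lysine-specific demethylase JMJD5 (CsaV3_1G042600) are 3 of the 24317 cucumber genes in the deposited table. They were picked by gene ID because of how their levels moved over the 4 cold durations, so those levels are given as a description, with no test. All 3 passed the filter on low values, which left 16432 genes. Messenger RNA was sequenced from fully expanded leaves of Cucumis sativus seedlings, with 3 libraries at each of 0, 3, 12 and 24 h of cold. Every seedling used here had received a spray of COS (chitosan oligosaccharide, pieces cut from the sugar polymer chitosan) at 50 mg/L. The seedlings then spent 24 h at 28 °C by day and 18 °C by night before the move to 12 °C by day and 6 °C by night, under 12 h of light and 12 h of darkness. The 0 h leaves are thus sprayed leaves that were never chilled. Seedlings sprayed with distilled water were not analysed here, so no value shows what the spray did. The labels name no age in days and no cultivar.

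GIGANTEA is a large plant nuclear and cytosolic protein of the circadian clock, the daily timer that most plant cells carry. In Arabidopsis its RNA peaks late in the day, and the protein binds F-box proteins with a blue-light-sensing LOV domain, among them FKF1, the Arabidopsis relative of adagio protein 3. GIGANTEA and FKF1 together mark repressors of CONSTANS, the cyclic dof factors, for breakdown, which lets long days promote flowering. In Arabidopsis JMJD5, a jumonji-type protein with evening expression, affects the period of the same clock, and GIGANTEA is also known there for a part in freezing tolerance. The names of the cucumber genes come from the deposited descriptions. The labels do not tell at which hour of the day leaves were taken, so these data cannot show whether the 3 genes peaked in the evening. If all seedlings entered the cold at the same hour, leaves at 3 and 12 h differed from those at 0 h in time of day as well as in cold, and hours since the spray rose with hours of cold; these cannot be told apart. In whole leaves, fewer cells of a type and less RNA per cell cannot be told apart either.

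Library totals were 62.7 to 81.6 M units (M, 10 to the power of 6), where a unit is the deposited estimated count; with the lowest counts spaced by 3.72 units, the libraries hold about 16.9 to 21.9 M fragments. Whether each library came from its own plants is not stated in the labels; a p-value therefore weighs a difference against the spread of 3 libraries that may vary in part for technical reasons. Across tested genes, log2 levels correlated at 0.9889 to 0.9929 within the 0, 3 and 12 h groups and at 0.9658 to 0.9837 within the 24 h group, against 0.7816 to 0.9367 between groups; these are correlations across genes, which are not replicates. The label of leaf tissue was checked on 23 genes of Rubisco and the chlorophyll a-b binding proteins. All 23 were tested, and together they summed to 32292 to 34050 FPKM (fragments scaled to transcript length and library size) at 0 h, 44745 to 45619 at 3 h, 53706 to 58148 at 12 h and 28144 to 32173 at 24 h, so that they were highest at 12 h, where the 3 genes were also high. Of 14 phloem genes, 8 were tested and 1 was at 0 in all 12 libraries. The phloem genes summed to 276 to 493, 310 to 482, 357 to 562 and 504 to 1364 FPKM at 0, 3, 12 and 24 h. The 4 guard-cell genes, of which only 2 were tested, summed to 18.4 to 23.5, 17.3 to 19.5, 14.2 to 18.6 and 6.6 to 7.54 FPKM, lowest at 24 h. The 5 root genes, of which 3 were tested, summed to 31.7 to 35.4, 53.8 to 56.1, 24.0 to 25.3 and 29.9 to 45.2 FPKM. The part of cell makeup in the results was not tested.

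GIGANTEA-like lies on chromosome 6 at 4242681 to 4253277 on the plus strand of the deposited annotation, a span of 10597 bases; the sources used here name no build. Its level was higher at each step up to 12 h. In the 0 h libraries it was 4.16, 4.34 and 4.27 FPKM, with a mean of 4.26 ± 0.0917 (SD, n = 3). At 3 h it was 24.3, 21.6 and 23.8 FPKM, with a mean of 23.2 ± 1.44. The 3 h libraries all lay above the 0 h libraries. At 12 h it was 291, 286 and 278 FPKM, with a mean of 285 ± 6.57. At 24 h it was 219, 322 and 333 FPKM, with a mean of 291 ± 62.8. Both late groups lay far above the early ones and overlapped each other, with replicate 1 of 24 h below every 12 h library and the other 24 h libraries above them. The means at 24 and 12 h differed by 5.84 FPKM, less than the SD of the 24 h libraries.

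The ratio of mean FPKM to 0 h was 5.46 at 3 h, 67.0 at 12 h and 68.4 at 24 h for GIGANTEA-like. On the log2 scale of the edgeR fit the differences from 0 h were 2.45 (SE 0.13), 6.12 (SE 0.16) and 6.15 (SE 0.16). Each SE of a log2 difference was worked back from the F value of the edgeR test, so it is approximate. The difference at 3 h was thus 40.0% of the log2 difference reached at 12 h. From 12 to 24 h the log2 difference was 0.03 (SE 0.12). It was 0.20 without replicate 1 of 24 h, -0.05 without replicate 2 and -0.07 without replicate 3. The order of levels was 24 h, 12 h, 3 h and 0 h, and the first pair in that order did not differ beyond its spread. GIGANTEA-like was well covered throughout, with about 1360 fragments over the 0 h libraries and about 84795 over the 12 h libraries.

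Adagio protein 3 lies on chromosome 5 at 11354924 to 11358437 on the minus strand, a span of 3514 bases. Unlike GIGANTEA-like, it stood lower at 3 h than at 0 h before it stood high at 12 h. In the 0 h libraries it was 1.28, 1.30 and 1.29 FPKM, with a mean of 1.29 ± 0.00987 (SD, n = 3). At 3 h it was 0.722, 0.406 and 0.576 FPKM, with a mean of 0.568 ± 0.158. All 3 h libraries lay below all 0 h libraries, the opposite order to that of GIGANTEA-like. At 12 h it was 44.7, 44.8 and 45.7 FPKM, with a mean of 45.1 ± 0.57. At 24 h it was 25.6, 35.3 and 40.1 FPKM, with a mean of 33.7 ± 7.37. The 24 h libraries all lay below the 12 h libraries, and the lowest was again replicate 1.

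For adagio protein 3 the mean at 3 h was 0.439 of that at 0 h, and the means at 12 and 24 h were 34.9 and 26.0 times that at 0 h. The log2 differences from 0 h were -1.18 (SE 0.20), 5.17 (SE 0.20) and 4.76 (SE 0.19). The step from 3 to 12 h was the steepest of the 3 genes on the log2 scale, 6.35 (SE 0.21), a ratio of 79.4 in mean FPKM, against 3.67 (SE 0.14) for GIGANTEA-like and 5.37 (SE 0.47) for JMJD5-like. The low level at 3 h rests on about 82.5 fragments over the 3 libraries, against about 206 at 0 h. Without replicate 2 of 3 h the log2 difference at 3 h was -0.99, and without replicate 1 it was -1.38. The order of levels was 12 h, 24 h, 0 h and 3 h, with no overlap between neighbours. From 12 to 24 h the log2 difference was -0.42 (SE 0.16), and it was -0.26 without replicate 1 of 24 h.

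The JMJD5-like gene lies on chromosome 1 at 27531123 to 27534763 on the plus strand, a span of 3641 bases. It was nearly silent at 0 h. Its libraries there held 0.289, 0.493 and 0.108 FPKM, with a mean of 0.297 ± 0.193 (SD, n = 3). At 3 h it was 2.18, 0.617 and 1.45 FPKM, with a mean of 1.42 ± 0.782. The lowest 3 h library lay just above the highest 0 h library. At 12 h it was 60.1, 57.0 and 53.1 FPKM, with a mean of 56.7 ± 3.55. At 24 h it was 20.2, 40.2 and 51.0 FPKM, with a mean of 37.1 ± 15.7. The 24 h libraries were widely scattered, with a coefficient of variation of 42.2% against 21.6% for GIGANTEA-like and 21.9% for adagio protein 3, and the highest of them lay just below the lowest 12 h library.

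Ratios of the JMJD5-like gene are less certain than those of the other genes, since the 0 h libraries held about 6.72, 12.1 and 3.23 fragments of it. The mean FPKM was 4.77 times the 0 h mean at 3 h, 191 times at 12 h and 125 times at 24 h. The log2 differences from 0 h were 2.27 (SE 0.56), 7.63 (SE 0.55) and 7.02 (SE 0.54).
At 12 h the difference was 8.23 without replicate 2 of 0 h and 7.21 without replicate 3 of 0 h, and at 24 h it was 7.62 and 6.60. At 3 h it was 2.86 without replicate 2 of 0 h, 1.84 without replicate 3 of 0 h and 1.82 without replicate 1 of 3 h. From 12 to 24 h it was -0.61 (SE 0.37), but -0.31 without replicate 1 of 24 h and -0.91 without replicate 3. The order of levels was 12 h, 24 h, 3 h and 0 h, with no overlap between neighbours.

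**Figure D1:**
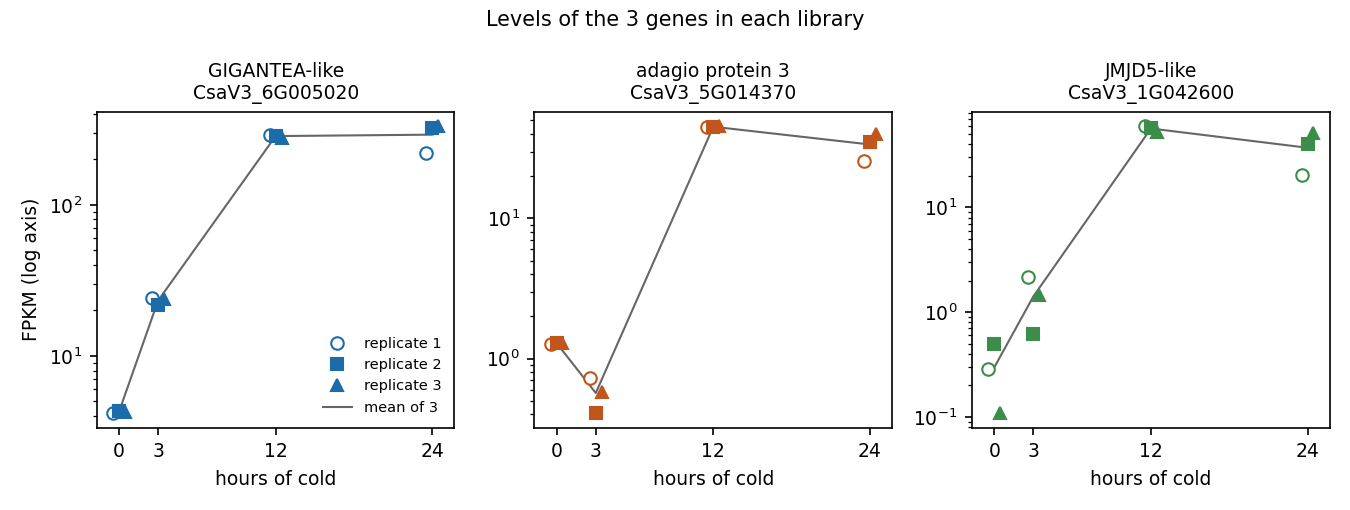
FPKM (log axis) of each gene in each of the 12 libraries against hours of cold, with a symbol per replicate number and a line through the means of 3 libraries. All 3 genes stand highest at 12 or 24 h; adagio protein 3 is lower at 3 h (mean 0.568 FPKM) than at 0 h (1.29 FPKM), whereas the other genes are higher, and replicate 1 of 24 h is the lowest 24 h library in each panel.

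The 3 genes therefore shared the high late level but not the path to it. At 3 h against 0 h their libraries did not overlap, with 2 genes higher and 1 lower; the same held in either direction for 69.9% of tested genes. At 12 h against 0 h all 3 were higher without overlap, as were 36.1% of tested genes, and at 24 h against 0 h all 3 were higher, as were 33.8%. At 12 h against 3 h all 3 were higher, as were 31.2%, and at 24 h against 12 h 2 of the 3 were lower, as were 30.9%. These comparisons chose the genes, so nothing is read from the counts. By the log2 difference at 12 h against 0 h, which the choice also used, JMJD5-like ranked 27, GIGANTEA-like 56 and adagio protein 3 106 among 16432 genes.

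The proportions between the genes moved with time. Within a library GIGANTEA-like stood 3.24 to 3.33 times as high as adagio protein 3 in FPKM at 0 h. The ratio was 33.7 to 53.2 at 3 h, where the one was higher and the other lower, then 6.08 to 6.51 at 12 h and 8.3 to 9.12 at 24 h. Adagio protein 3 stood 2.64 to 12.0 times as high as JMJD5-like at 0 h and 0.331 to 0.658 times as high at 3 h. At 12 h it stood 0.743 to 0.862 times as high, and at 24 h 0.785 to 1.27 times. At 24 h only the library of replicate 1 had more of adagio protein 3 than of JMJD5-like.

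Replicate 1 of 24 h was the lowest of its group for all 3 genes. It was also the lowest for 42.7% of tested genes at 5 FPKM or more in the 24 h mean. Its level was 0.669 of the mean of the other 24 h libraries for GIGANTEA-like, 0.68 for adagio protein 3 and 0.442 for JMJD5-like. Among 10654 tested genes at 5 FPKM or more in the 24 h mean the median of that ratio was 0.983, with 0.65 and 1.59 as its 5th and 95th percentiles, and 7.72% of them had 0.7 or less. JMJD5-like thus lay outside that range and the other genes lay near its lower end. Replicate 3 of 24 h stood apart too, on the high side. Its ratio to the mean of the other 24 h libraries was 1.69 for JMJD5-like, 1.32 for adagio protein 3 and 1.23 for GIGANTEA-like. Over the same tested genes the 5th and 95th percentiles for replicate 3 were 0.599 and 1.45. The scatter at 24 h is therefore not that of replicate 1 alone. Replicate 1 had 504 FPKM over the phloem genes, against 1289 and 1364 in replicates 2 and 3. Over the leaf genes it had 32173 FPKM, against 28144 and 29131. The part of cell makeup in this difference was not tested. Without that library the 24 h means were 327 FPKM for GIGANTEA-like, 37.7 for adagio protein 3 and 45.6 for JMJD5-like. Those are 115%, 83.6% and 80.4% of the 12 h means, against 102%, 74.7% and 65.4% with all libraries.

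Other clock genes in that library did not all lie low. Of the 19 other clock genes at 5 FPKM or more in the 24 h mean, replicate 1 was the lowest library in 10 and the highest in 6. It was the lowest in 42.7% of all 10654 tested genes at that level, so the count of 10 is not read as a trait of clock genes. The pseudo-response regulator APRR7 stood at 0.666 (CsaV3_5G000530) and 0.695 (CsaV3_4G024430) of the mean of the other libraries, and APRR1 at 0.718. LHY-like, a morning repressor of the clock, stood at 1.26, and its relative REVEILLE 1-like at 1.78. ELF4-LIKE 4, of the evening complex family, stood at 1.56.

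**Figure D2:**
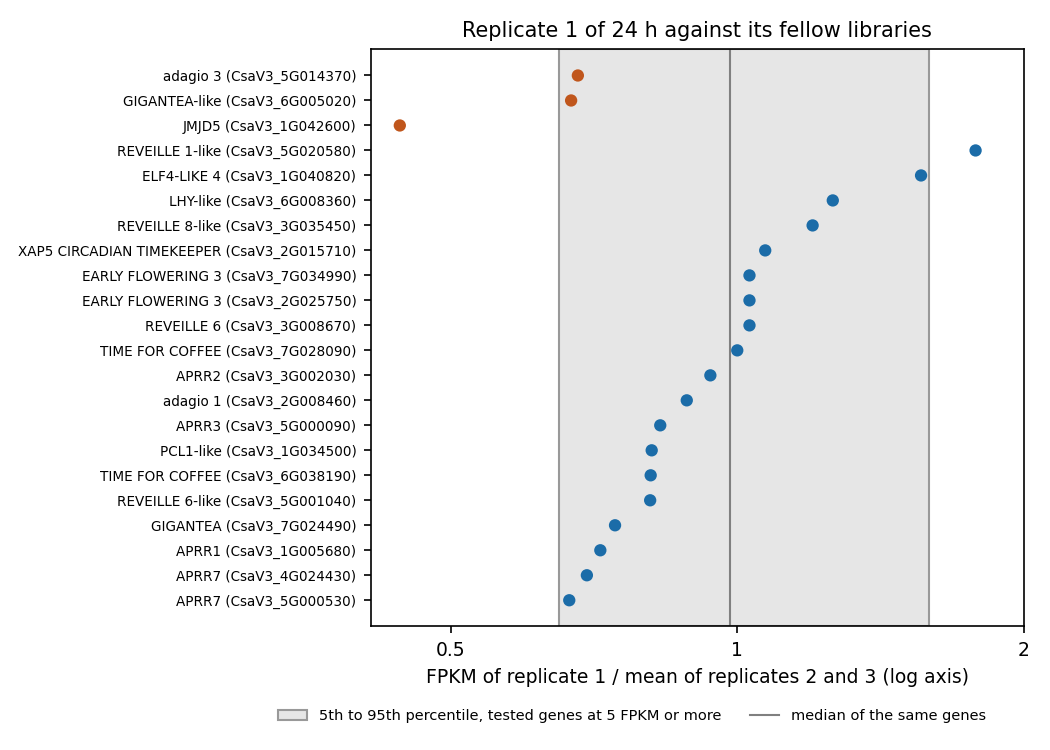
FPKM in replicate 1 of 24 h divided by the mean of replicates 2 and 3 (log axis) for the 3 genes (orange) and for 19 other clock genes (blue), with the median and the 5th to 95th percentiles of tested genes at 5 FPKM or more in grey. The 3 genes lie at 0.442 to 0.68, whereas the other clock genes spread from 0.666 to 1.78.

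The cucumber table holds a further gene named GIGANTEA (CsaV3_7G024490), and it moved the other way. Its level was 24.1 ± 0.776 FPKM at 0 h, 10.7 ± 1.12 at 3 h, 9.26 ± 0.508 at 12 h and 13.7 ± 2.29 at 24 h (SD, n = 3). It fell at each duration against 0 h, with log2 differences of -1.17 (SE 0.12, edgeR adjusted p = 4.57e-06), -1.33 (SE 0.12, edgeR adjusted p = 8.11e-07) and -0.76 (SE 0.11, edgeR adjusted p = 7.2e-05) at 3, 12 and 24 h. From 12 to 24 h it rose by 0.57 (SE 0.12, edgeR adjusted p = 0.00135). At 0 h it was thus the more abundant of the pair in FPKM, and from 3 h on the less abundant. GIGANTEA-like held 14.8% to 15.2% of the summed FPKM of the pair at 0 h, 64.8% to 71.9% at 3 h, 96.7% to 96.9% at 12 h and 95.1% to 95.7% at 24 h. The sum was 28.4 ± 0.861 FPKM at 0 h and 33.9 ± 0.656 at 3 h, then 295 ± 6.9 at 12 h and 305 ± 65.1 at 24 h.
The labels and the table do not tell how reads common to both copies were assigned, so the split between them is uncertain.

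Adagio protein 1 (CsaV3_2G008460), the relative of Arabidopsis ZEITLUPE and likewise a LOV F-box protein that binds GIGANTEA there, changed little. Its level was 17.9 ± 1.03, 19.9 ± 0.341, 21.0 ± 1.37 and 23.0 ± 1.79 FPKM at 0, 3, 12 and 24 h (SD, n = 3). It rose by 0.29 (SE 0.08) on the log2 scale at 12 h (edgeR adjusted p = 0.00609) and by 0.42 (SE 0.08) at 24 h (edgeR adjusted p = 0.000395), and its difference at 3 h was 0.15 (SE 0.08, edgeR adjusted p = 0.114). Adagio protein 3 made up 6.51% to 7.13% of the summed FPKM of both adagio genes at 0 h and 2.04% to 3.5% at 3 h. It made up 66.6% to 69.9% at 12 h and 54.8% to 61.9% at 24 h. The less abundant adagio gene of the unchilled leaf was thus the more abundant one in every library from 12 h on.

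**Figure D3:**
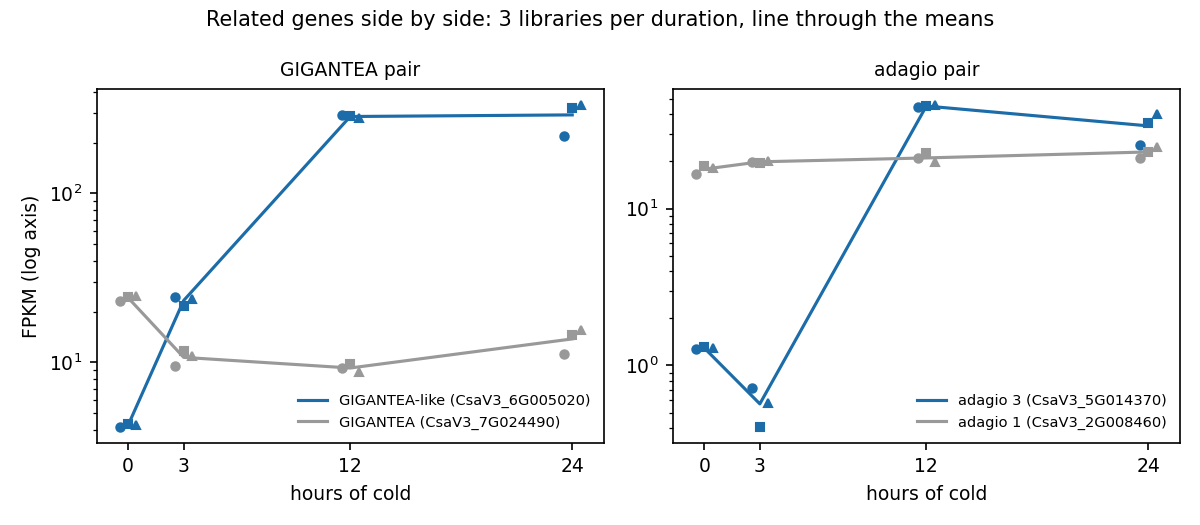
FPKM (log axis) against hours of cold for GIGANTEA-like and GIGANTEA (left) and for adagio 3 and adagio 1 (right), with 3 libraries per duration and a line through the means. The GIGANTEA lines cross between 0 and 3 h, as GIGANTEA fell to 10.7 FPKM at 3 h, and the adagio lines cross between 3 and 12 h, where adagio 1 stays between 17.9 and 23.0 FPKM on average.

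The other genes whose descriptions name a clock component were set beside the 3 genes. Of 29 such genes 23 were tested. At 3 h 6 rose and 11 fell, where 29.4% of all tested genes rose and 28.3% fell, and the median log2 difference was -0.03 against 0.00 for all genes. At 12 h 11 rose and 6 fell, where 34.4% of all genes rose and 33.0% fell, with a median of 0.24 against 0.00. At 24 h 11 rose and 7 fell, where 36.2% of all genes rose and 37.9% fell, with a median of 0.22 against -0.03. From 3 to 12 h 11 rose and 4 fell against 27.9% and 27.6% of all genes, with a median of 0.20, and from 12 to 24 h 7 rose and 5 fell against 24.5% and 27.4%, with a median of -0.03. Clock genes were therefore called in both directions at every duration, and no description matched the LNK coactivators.

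Some pseudo-response regulators repress morning genes in turn through the day in Arabidopsis. Among the genes with such a name, taken by description alone, APRR3 (CsaV3_5G000090) was also high at 12 and 24 h. It stood at 2.79, 4.78, 338 and 300.4 FPKM at 0, 3, 12 and 24 h, and its log2 rise at 12 h was 6.97 (SE 0.16, edgeR adjusted p = 3.28e-11). APRR7 (CsaV3_4G024430) had risen at 3 h, to 41.2 from 5.81 FPKM, and stood at 175 and 168 FPKM at 12 and 24 h, with 4.97 (SE 0.15, edgeR adjusted p = 1.64e-10) as its log2 difference at 12 h. A further APRR7 gene (CsaV3_5G000530) had a log2 difference of 0.43 (SE 0.17, edgeR adjusted p = 0.0358) at 12 h, which missed the threshold when any 0 h library or replicate 2 or 3 of 12 h was left out (adjusted p = 0.0674 to 0.118) and in limma on log2(FPKM + 1) (adjusted p = 0.0683). APRR1, the relative of Arabidopsis TOC1, had a difference of -0.02 (SE 0.13, edgeR adjusted p = 0.895) at 12 h, from 13.0 to 12.4 FPKM. APRR2 (CsaV3_3G002030) had a difference of -0.18 (SE 0.07, edgeR adjusted p = 0.0446), which missed the threshold when any 0 h library, replicate 1 or 3 of 3 h, or replicate 2 or 3 of 12 h was left out (adjusted p = 0.0552 to 0.14), with the replicate block (adjusted p = 0.0693) and with no filter (adjusted p = 0.0751). The genes with this name were thus not uniform, and whether each of them, APRR2 included, acts in the clock was not tested.

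The evening complex joins ELF3, ELF4 and the LUX protein (also called PCL1) and represses clock genes at night in Arabidopsis. Of 7 tested genes of this group 0 rose and 4 fell at 3 h, where 29.4% of all tested genes rose and 28.3% fell, and 4 rose and 0 fell at 12 h, where 34.4% rose and 33.0% fell. EARLY FLOWERING 3 (CsaV3_2G025750) kept rising, from 7.15 ± 0.09 FPKM at 0 h to 15.6 ± 0.317 at 12 h and 34.9 ± 0.841 at 24 h (SD, n = 3). Its log2 rise was 1.18 (SE 0.07, edgeR adjusted p = 1.93e-08) from 0 to 12 h and 1.16 (SE 0.07, edgeR adjusted p = 7.89e-08) from 12 to 24 h, a step over which GIGANTEA-like moved by 0.03. At 3 h it fell by 0.41 (SE 0.07, edgeR adjusted p = 0.000232), where adagio protein 3 was lower too. A PCL1-like gene (CsaV3_1G034500) stood at 0.421, 0.154, 3.93 and 8.01 FPKM, again lower at 3 h and higher late, with a log2 rise of 3.27 (SE 0.39, edgeR adjusted p = 1.13e-05) at 12 h. Its difference of -1.43 (SE 0.44, edgeR adjusted p = 0.0144) at 3 h missed the threshold without replicate 2 of 0 h (adjusted p = 0.0813) or replicate 3 of 3 h (adjusted p = 0.0591) and in limma on log2(FPKM + 1) (adjusted p = 0.14). Another PCL1-like gene (CsaV3_4G029340) was at 6.17, 3.46, 7.02 and 2.89 FPKM and fell by 1.04 (SE 0.17, edgeR adjusted p = 0.000153) at 24 h. The second EARLY FLOWERING 3 gene (CsaV3_7G034990), at 29.7 to 37.6 FPKM, and ELF4-LIKE 4, at 19.2 to 28.2 FPKM, were not called at 12 or 24 h. ELF4-LIKE 4 was among the 4 that fell at 3 h (-0.38, SE 0.15, edgeR adjusted p = 0.0499), a call that ended when any 0 h or 12 h library, or replicate 1 or 3 of 3 h, was left out (adjusted p = 0.058 to 0.151). That call also ended with the replicate block (adjusted p = 0.0567), with median-of-ratios scaling (adjusted p = 0.0557) and with no filter (adjusted p = 0.0603). The PCL1-like genes CsaV3_6G016650 and CsaV3_7G009940, named after their values were seen, stood at 2.83 and 3.00 FPKM at 12 h with nearly equal values at every duration, and may share reads.

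Among morning genes, LHY-like (CsaV3_6G008360), which in Arabidopsis represses GIGANTEA and other evening genes, was abundant early and lower late. It stood at 555 ± 19.0 FPKM at 0 h and 545 ± 10.7 at 3 h, then at 235 ± 7.48 at 12 h and 142 ± 21.1 at 24 h (SD, n = 3). It fell late, with log2 differences of -1.19 (SE 0.09, edgeR adjusted p = 2.2e-07) at 12 h and -1.91 (SE 0.09, edgeR adjusted p = 2.54e-09) at 24 h, and its difference at 3 h was -0.03 (SE 0.09, edgeR adjusted p = 0.819). At 3 h GIGANTEA-like stood at 5.46 times its 0 h mean, and LHY-like was not called. Any link between the RNA of the 2 genes was not tested, and LHY protein was not measured. REVEILLE 1-like, at 110.4 FPKM at 0 h and 26.3 at 12 h, and REVEILLE 8-like, at 159 and 62.3, fell, with log2 differences of -2.02 (SE 0.24, edgeR adjusted p = 1.24e-05) and -1.30 (SE 0.10, edgeR adjusted p = 2.52e-07). REVEILLE 6-like (CsaV3_5G001040) rose from 14.6 to 48.5 FPKM, by 1.79 (SE 0.09, edgeR adjusted p = 7.76e-09), and REVEILLE 6 (CsaV3_3G008670) had a difference of 0.14 (SE 0.06, edgeR adjusted p = 0.0772). Among genes that modify the clock, TIME FOR COFFEE (CsaV3_6G038190) rose from 36.3 to 81.4 FPKM at 12 h and XAP5 CIRCADIAN TIMEKEEPER fell from 28.1 to 17.5. The second TIME FOR COFFEE gene (CsaV3_7G028090) was at 17.4 and 17.8 FPKM at 0 and 12 h, and fell to 7.66 FPKM at 3 h, a log2 difference of -1.19 (SE 0.07, edgeR adjusted p = 1.25e-07).

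**Figure D4:**
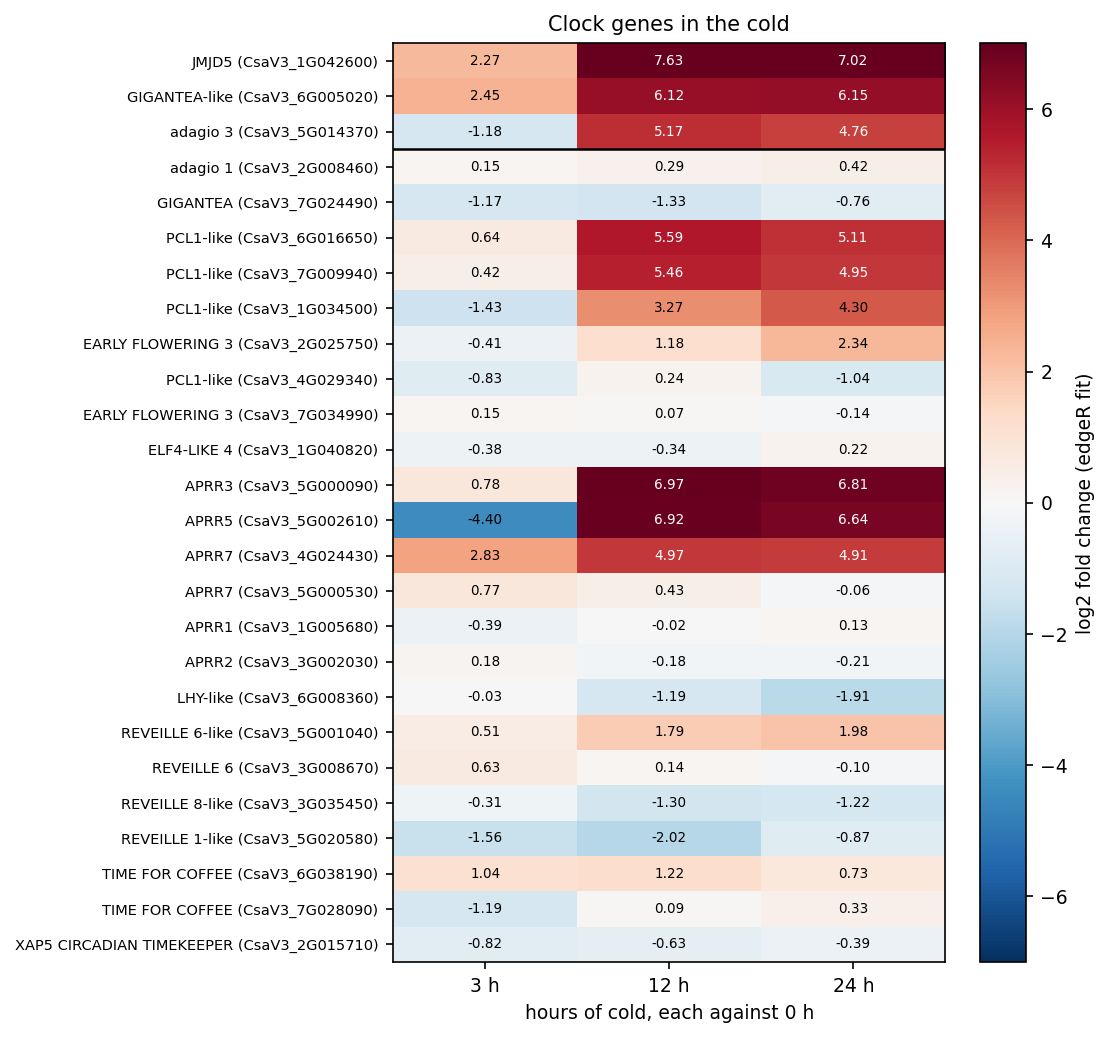
Log2 fold change from the edgeR fit at 3, 12 and 24 h of cold, each against 0 h, for the 3 genes (above the line) and 23 other tested clock genes, in red where higher and blue where lower, with the value written in each cell and colours capped at 7 in either direction. The 3 genes reach 5.17 to 7.63 at 12 h, a size matched in APRR3 (6.97), while LHY-like (-1.19) and GIGANTEA (-1.33) lie in blue; APRR5 and 2 PCL1-like genes with red cells stayed below 5 FPKM and their values are imprecise.

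The photoperiod list held the cyclic dof factors, which GIGANTEA and FKF1 mark for breakdown in Arabidopsis, and the CONSTANS family, 22 genes of which 21 were tested. At 12 h 6 rose and 12 fell, where 34.4% of all tested genes rose and 33.0% fell, and the median log2 difference was -1.14 against 0.00 for all genes. At 3 h 6 rose and 11 fell, against 29.4% and 28.3% of all genes, with a median of -0.48 against 0.00. At 24 h 3 rose and 13 fell, against 36.2% and 37.9%, with a median of -0.79 against -0.03. Of the 6 cyclic dof factors, singled out after their values were seen, 1 rose and 4 fell at 12 h. Of those that fell, CsaV3_3G040560 and CsaV3_6G050890 stayed below a mean of 5 FPKM at every duration. Cyclic dof factor 1 (CsaV3_5G032810) stood at 13.3, 7.53, 14.5 and 4.16 FPKM at 0, 3, 12 and 24 h. It was not called at 12 h (0.18, SE 0.12, edgeR adjusted p = 0.193) but fell at 3 and 24 h. Cyclic dof factor 3 (CsaV3_1G002390) rose from 14.5 to 38.8 FPKM, by 1.47 on the log2 scale (SE 0.08, edgeR adjusted p = 2.27e-08), and was at 17.1 FPKM at 24 h. The more abundant cyclic dof factor 3-like (CsaV3_1G005540) fell from 102 to 33.2 FPKM, a log2 difference of -1.57 (SE 0.10, edgeR adjusted p = 7.66e-08). Cyclic dof factor 2-like (CsaV3_3G041310) fell from 63.8 to 22.0 FPKM, by 1.48 (SE 0.08, edgeR adjusted p = 8.92e-09). RNA levels do not show the breakdown of these proteins.

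Of the CONSTANS family, CONSTANS-LIKE 14-like (CsaV3_4G002870) was likewise higher late than early. It stood at 4.31, 6.88, 68.5 and 47.4 FPKM and rose by 4.04 log2 units (SE 0.16, edgeR adjusted p = 1.48e-09) at 12 h. The other genes of the family with the largest changes fell. CONSTANS-LIKE 2-like (CsaV3_4G009980) went from 869.8 FPKM at 0 h to 146 at 3 h, 57.6 at 12 h and 53.7 at 24 h, a log2 difference of -3.87 (SE 0.38, edgeR adjusted p = 2.13e-06) at 12 h. CONSTANS-LIKE 6 (CsaV3_6G003540) went from 364 to 13.4 FPKM at 12 h, and its namesake CsaV3_5G026860 from 22.1 to 1.06. CONSTANS-LIKE 9 (CsaV3_5G034710) went from 58.3 to 5.55 FPKM and CONSTANS-LIKE 16 (CsaV3_1G003800) from 119 to 15.3.

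Jumonji proteins, the family of JMJD5, remove methyl groups from histones or hydroxylate proteins. Of 12 others, all tested, 3 rose and 4 fell at 12 h, where 34.4% of all tested genes rose and 33.0% fell, with a median log2 difference of 0.17 against 0.00. Their differences ranged from -3.73 to 0.93, beside 7.63 for JMJD5-like, which was chosen for its change, so nothing is read from the gap. At 3 h 2 rose and 2 fell, against 29.4% and 28.3% of all genes, and at 24 h 4 rose and 4 fell, against 36.2% and 37.9%. The JMJ706-like gene (CsaV3_3G001400) stood at 2.95, 9.15, 5.43 and 28.6 FPKM, a different order from JMJD5-like, and rose by 0.93 (SE 0.18, edgeR adjusted p = 0.000696) at 12 h and by 3.33 (SE 0.20, edgeR adjusted p = 1.53e-08) at 24 h. Demethylase 5D (CsaV3_5G002860) rose by 0.54 (SE 0.10, edgeR adjusted p = 0.000473) and JMJ25 (CsaV3_2G006530) fell by 0.41 (SE 0.10, edgeR adjusted p = 0.00406) at 12 h.

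Blue-light receptors share the LOV domain with adagio protein 3 or sense the same light. Of 6 genes, 1 rose and 3 fell at 3 h, against 29.4% and 28.3% of all tested genes. At both 12 and 24 h 2 rose and 4 fell, against 34.4% and 33.0% of all genes at 12 h and 36.2% and 37.9% at 24 h. TWIN LOV 1 (CsaV3_5G032360) rose with adagio protein 3, from 9.75 FPKM at 0 h and 11.4 at 3 h to 75.0 at 12 h and 68.7 at 24 h, a log2 rise of 3.00 (SE 0.11, edgeR adjusted p = 7.28e-10) at 12 h. Cryptochrome DASH (CsaV3_3G046930) stood highest at 3 h, at 39.4 FPKM, where adagio protein 3 was lowest. It rose by 1.64 (SE 0.16, edgeR adjusted p = 1.88e-06) at 12 h. Phototropin-2-like (CsaV3_7G002270) fell from 15.1 to 4.7 FPKM, by 1.63 (SE 0.17, edgeR adjusted p = 3.65e-06).

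On the chromosome, the 3 genes were set beside their neighbours, the 2 nearest genes on each side and any that overlap. GIGANTEA-like and adagio protein 3 overlap no annotated gene. JMJD5-like lies wholly within the span of CsaV3_1G042590, a hypothetical protein gene on the same strand (27530422 to 27538560 on chromosome 1), so reads of the pair cannot be told apart by strand. That gene held 1, 21, 82 and 49 units in all over the 0, 3, 12 and 24 h libraries, at most 12.0% of the units of JMJD5-like in any library and 0.442% to 0.676% at 12 h. Its levels were 0.00208, 0.336, 1.4 and 0.727 FPKM. Its own rise (log2 6.04, SE 1.04, edgeR adjusted p = 0.000238 at 12 h) is therefore uncertain.

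Of the 13 neighbours 11 were tested, and at 12 h 9 rose and 1 fell, against 34.4% and 33.0% of all tested genes. The 9 include the overlapping gene CsaV3_1G042590 and CsaV3_5G014360, which held about 9.95 fragments over the 0 h libraries and 21.8 over the 12 h libraries. Whether neighbours changed together with the 3 genes was not tested. Next to GIGANTEA-like, UDP-galactose transporter 2 (CsaV3_6G005030), 4514 bases away on the opposite strand, rose from 6.79 to 17.1 FPKM, by 1.38 (SE 0.13, edgeR adjusted p = 1.99e-06). The S-adenosylmethionine carrier gene CsaV3_6G005000 rose from 4.1 to 10.6 FPKM, by 1.42 (SE 0.13, edgeR adjusted p = 1.67e-06). The hypothetical protein gene CsaV3_6G005040, on the same strand as GIGANTEA-like, was the 1 that fell. It went from 23.3 to 15.6 FPKM, a log2 difference of -0.53 (SE 0.07, edgeR adjusted p = 3.95e-05). Next to adagio protein 3, the uncharacterized gene CsaV3_5G014380 rose by 3.60 (SE 0.45, edgeR adjusted p = 1.93e-05) but from 0.151 to 1.87 FPKM, and the sec14 factor gene CsaV3_5G014390 rose from 5.32 to 12.5 FPKM. Next to JMJD5-like, ETHYLENE INSENSITIVE 3-like 3 (CsaV3_1G042580) rose from 9.45 to 20.1 FPKM, by 1.14 (SE 0.06, edgeR adjusted p = 1.67e-08). Histone H3.2 (CsaV3_1G042610) rose from 5.97 to 9.38 FPKM, by 0.70 (SE 0.22, edgeR adjusted p = 0.0143).

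For each of the 3 genes the 5 annotated genes with the most similar course were found among 8847 genes that reached a mean of 5 FPKM at some duration. Likeness was the root mean square difference over the 12 libraries of log2(FPKM + 1), after each gene's own 0 h mean was subtracted, and Pearson's r over the same 12 libraries is given beside it as a description. The libraries share the cold duration, so high values are common: r was at least 0.95 with GIGANTEA-like in 385 of the 8847 genes (4.35%), with adagio protein 3 in 252 (2.85%) and with JMJD5-like in 295 (3.33%). GIGANTEA-like and JMJD5-like differed by 0.88 (r = 0.971), adagio protein 3 and JMJD5-like by 1.04 (r = 0.973), and GIGANTEA-like and adagio protein 3 by 1.82 (r = 0.915). None of the 3 was among the 5 most similar genes of another, and none of the 15 genes found was in the clock list. The nearest 5 depended on the measure: with an offset of 0.1 in place of 1, 2, 1 and 1 of them remained for GIGANTEA-like, adagio protein 3 and JMJD5-like, and with Pearson's r as the measure 1, 1 and 0.

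The closest gene to GIGANTEA-like was rop guanine nucleotide exchange factor 5 (CsaV3_6G001490), of a family that switches on small ROP GTPases, with a difference of 0.22 (r = 0.996). It stood at 0.397, 5.78, 70.2 and 77.2 FPKM at 0, 3, 12 and 24 h, thus with a rise already at 3 h and no drop at 24 h. A ROOT INITIATION DEFECTIVE 3-like gene (CsaV3_4G008210) followed at 0.46 (r = 0.988), with 1.67, 17.8, 97.8 and 113 FPKM. The other 3 were glutathione S-transferases, detoxification enzymes, on chromosome 4 (CsaV3_4G025680, CsaV3_4G025770 and CsaV3_4G025750), at 0.63, 0.68 and 0.77. They lie within a stretch where the farthest gap between them is 46771 bases, and such close relatives may share reads.

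The closest gene to adagio protein 3 was a universal stress protein A-like gene (CsaV3_4G001170) at 0.38 (r = 0.995). It stood at 18.5, 8.38, 334 and 216 FPKM, so it shared the lower level at 3 h. The E3 ubiquitin ligase CCNB1IP1 homolog (CsaV3_4G008200) followed at 0.39 (r = 0.992), with 3.85, 4.08, 71.9 and 67.7 FPKM. F-box/LRR-repeat protein 14 (CsaV3_7G032050), at 0.43, phenolic glucoside malonyltransferase 2-like (CsaV3_1G033870), at 0.47, and molybdate transporter 2 (CsaV3_7G032820), at 0.47, completed the 5. These 3 stood at 0.334 to 1.84 FPKM at 3 h and 17.5 to 49.7 FPKM at 12 h. The CCNB1IP1 homolog and the ROOT INITIATION DEFECTIVE 3-like gene, the latter from the list of GIGANTEA-like, are divergent neighbours on chromosome 4, with 1955 bases between them.

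The closest gene to JMJD5-like was the ethylene-responsive factor CRF2-like (CsaV3_5G002210) at 0.55 (r = 0.984), with 1.17, 3.34, 52.8 and 53.6 FPKM. The most abundant was thiamine thiazole synthase (CsaV3_3G005340), which makes the thiazole part of thiamine, at 0.64, with 50.3, 40.3, 1765 and 1335 FPKM. Heat stress transcription factor A-6b (CsaV3_3G012910), at 0.66, stood at 1.28, 1.08, 76.4 and 67.7 FPKM. A pentatricopeptide repeat gene (CsaV3_7G004370), at 0.67, and cytochrome P450 71A1-like (CsaV3_1G009100), at 0.68, completed the 5.

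**Figure D5:**
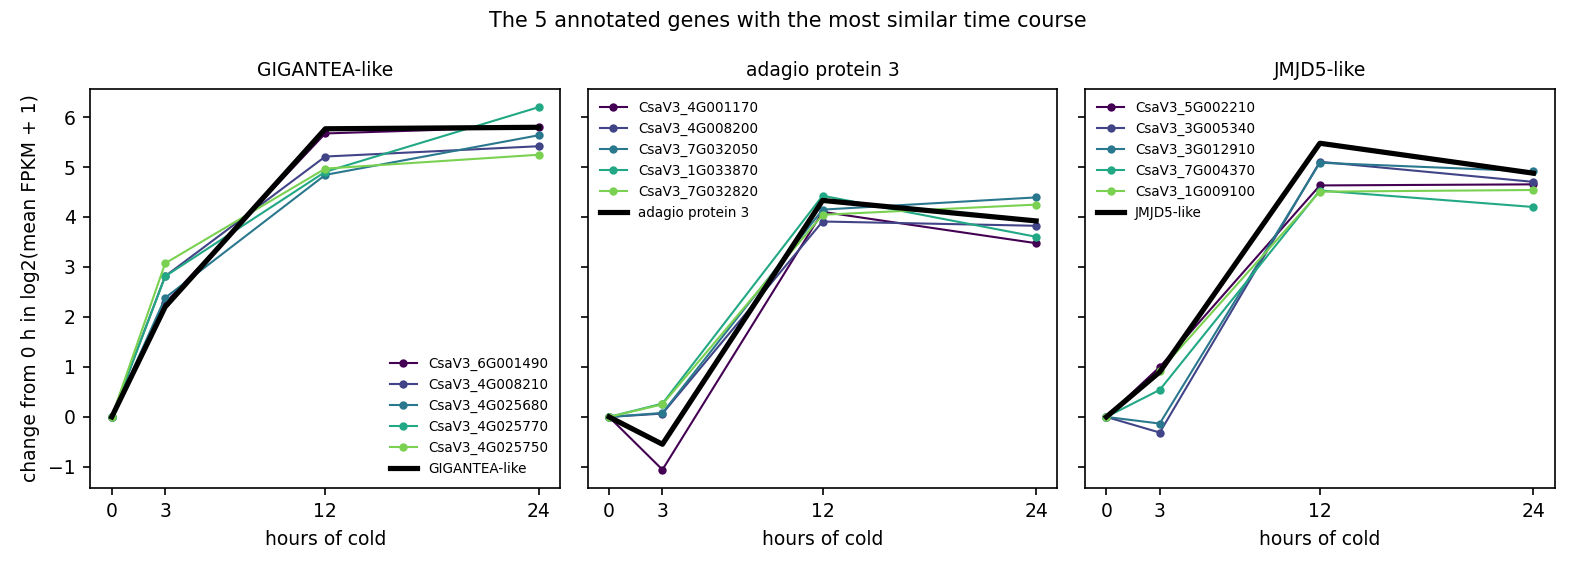
Change from 0 h in log2(mean FPKM + 1) against hours of cold for each of the 3 genes (thick black line) and the 5 annotated genes most like it (thin coloured lines). The lines of the GIGANTEA-like panel are already up at 3 h, those of the adagio protein 3 panel stay near or below 0 at 3 h, and in all panels the level of 12 h is largely held at 24 h.

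The plant circadian rhythm term of KEGG in the deposited table is carried by 90 genes, of which 79 were tested. GIGANTEA-like and adagio protein 3 carry it and JMJD5-like does not.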

How the data were processed

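Leaf RNA was extracted with Trizol, per the labels' protocols. Per the submitters' processing notes, cutadapt 1.9 and FastQC were used on the reads. HISAT2 mapped them, per the series design text. No source used here names the tool that counted reads, the annotation, the genome build or the use of strand. The estimated counts per gene were deposited by the authors as whole numbers, per the file headers. The FPKM values were also made and deposited by the authors; 0.0001 stands for each of 61048 counts of 0 and was read as 0. A gene was tested where 3 or more libraries had it at 1 FPKM or above, which left 16432 genes and 99.84% of the counts. Comparisons used the quasi-likelihood test of edgeR 4.0.16 in R 4.3.3 (two-sided, TMM scaling, 1 mean per duration over all 12 libraries, no block), with Benjamini-Hochberg adjustment over all tested genes and a threshold of 0.05. The biological coefficient of variation was 17.2%. Levels are mean FPKM ± SD, and fold changes are from the fit unless said to be ratios of mean FPKM. The SE of a log2 difference is its absolute size divided by the square root of the F value of its test. It rests on a spread shared over all 12 libraries, not on that of the groups compared alone. The procedure was also run on simulated counts with known changes and the same spread in every group. That setting is simpler than these data, where the 24 h libraries scattered more, so nothing is read from it.

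The 3 genes and the gene lists (patterns on the deposited descriptions) were chosen with earlier results of these data known. Genes named were tested clock genes that reached a mean of 5 FPKM, the 6 photoperiod genes with the largest change, up to 3 jumonji and 3 blue-light genes that reached that mean with the largest called change at 12 h, the chromosomal neighbours and the 5 genes most like each of the 3. Alternatives were other scalings, no filter, a replicate block, limma 3.58.1 on log2(FPKM + 1), DESeq2 1.42.0, counts divided by 3.72, a 2-fold threshold, fits of only the groups compared and leaving out each library. Plots were drawn with matplotlib 3.10.9.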

Additional observations from a re-analysis of the deposited data

How the results depend on the processing

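The log2 differences of the 3 genes at 12 h kept their sign in every setting run, and their size depended on the offset added to low levels. GIGANTEA-like, 6.12 in the edgeR fit, was 5.77, 6.03 and 4.97 in limma on log2(FPKM + 1), log2(FPKM + 0.1) and log2(FPKM + 5), and 6.07 as the log2 ratio of mean FPKM. Adagio protein 3, 5.17, was 4.33, 5.02 and 2.99, and 5.12 as that ratio. JMJD5-like, 7.63, was 5.49 with an offset of 1 and 3.54 with an offset of 5. The 3 h difference of adagio protein 3, -1.18, was -0.55 with an offset of 1, -1.09 with 0.1 and -0.18 with 5, and that of JMJD5-like, 2.27, was 0.85, 1.91 and 0.27. That of GIGANTEA-like was 2.20, 2.42 and 1.61. With an offset of 5 the 24 h differences were 4.98, 2.60 and 2.92 and those from 3 to 12 h 3.36, 3.17 and 3.27, in the order GIGANTEA-like, adagio protein 3 and JMJD5-like, so that adagio protein 3 no longer had the steepest step of the 3 genes. An offset shrinks the change of a gene with a low 0 h level by construction. With a 2-fold threshold added, clock genes called numbered 7 at 3 h, 13 at 12 h, 11 at 24 h and 4 from 12 to 24 h, against 17, 17, 18 and 12. The share of all tested genes under that threshold is not given here, so the drop is not read as a trait of clock genes. With 1 library left out the 12 h differences were 6.10 to 6.14, 5.16 to 5.19 and 7.21 to 8.23. Clock genes called were then 13 to 18 at 3 h, 15 to 19 at 12 h, 17 to 18 at 24 h, 14 to 19 from 3 to 12 h and 8 to 13 from 12 to 24 h. Genes of the photoperiod, jumonji and blue-light lists called were 24 to 29, 30 to 33, 29 to 30, 26 to 31 and 20 to 28 in the same order. All genes called were 8475 to 10215, 10189 to 11650, 11483 to 12221, 7869 to 9867 and 7298 to 9132. Of the single list genes, 4868 values stayed on their side of the threshold, 79 came to pass it, 88 no longer passed it and 0 changed direction.

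Deviations of same-numbered libraries correlated at -0.115 to 0.138 (2 of 18 pairs above 0.1). Those of different-numbered libraries correlated at -0.171 to 0.158 (4 of 36 pairs above 0.1), so no pairing by replicate number was seen. Whether same-numbered libraries shared a batch was not tested. With the replicate number as a block, the 12 h differences were 6.12, 5.18 and 7.63, clock genes called were 16, 16, 18, 16 and 13, 2 single list genes lost and 3 gained a call, and all genes called were 9306, 10939, 12063, 8921 and 8348. Depth limits JMJD5-like at 0 h, with about 22.0 fragments over 3 libraries, and adagio protein 3 at 3 h, with about 82.5.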
